A study of Mus musculus with 3 samples.

Results

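Collagen chain genes were followed across RNA-seq libraries of mouse fibroblasts and of cells labelled embryonic stem cells. A gene was taken as a member when its Ensembl identifier carried a symbol made of Col, a type number, the letter a and a chain number, which gave 44 of 29267 genes. Mouse embryonic fibroblasts (MEF) were of 2 strains, OG2 with its Oct4-GFP transgene, a reporter that lights up in pluripotent cells, and ICR, both used at passages 3 to 5. The embryonic stem cells (ESC) were the R1 line at passage 30, labelled as naive. Each strain or line gave 1 library, so the 2 MEF samples differ in strain as well as in culture, and the ESC side has no replicate. Nothing in the labels says how many embryos or cultures stand behind a MEF library, so the spread between the MEF samples may be technical or of strain, and R1 is a single established line.

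Every collagen is made of 3 chains that wind around each other, and each chain holds stretches in which glycine returns at every 3 residues. Fibrillar collagens, led by type I, form the tension-bearing fibres of connective tissue and are a main product of fibroblasts. Type IV collagen forms the mesh of basement membranes, type VI forms beaded filaments around cells, and the FACIT chains sit on the surface of fibrils. Chains of 1 type are often needed in a set proportion, for example a pair of alpha 1 chains for each alpha 2 chain in type I collagen.

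The glycine repeat can be read in the messages themselves. Below are the first 18 codons of the longest run of glycine-led triplets in 6 chains, taken 5′ to 3′ from GENCODE M21 transcripts on GRCm38, with the last base of each codon in capitals. The first 4 chains were far lower in the library labelled ESC than in MEF, Col11a2 was higher there, and Col6a2 differed by less than 1 log2 unit.
Col1a1: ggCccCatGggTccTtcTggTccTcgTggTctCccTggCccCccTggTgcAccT
Col1a2: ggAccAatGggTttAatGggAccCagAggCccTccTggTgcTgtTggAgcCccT
Col3a1: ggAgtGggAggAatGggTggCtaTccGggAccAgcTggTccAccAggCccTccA
Col5a2: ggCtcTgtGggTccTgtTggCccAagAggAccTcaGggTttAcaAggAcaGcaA
Col11a2: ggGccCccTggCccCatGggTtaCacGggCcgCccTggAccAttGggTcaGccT
Col6a2: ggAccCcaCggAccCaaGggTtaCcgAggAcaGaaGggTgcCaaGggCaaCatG
Glycine is written ggA, ggC, ggG or ggT, and proline, the residue most often modified in collagen, starts with cc. In these stretches the last base was G or C in 6 codons of Col1a1 and 5 each of Col1a2, Col3a1 and Col5a2, against 11 in Col11a2 and 12 in Col6a2. Over the whole of each run the share was 31.6%, 28.7%, 23.5% and 26.0% in the first 4 chains, 45.9% in Col11a2 and 48.7% in Col6a2. Col5a1, not shown, had 43.6% and was also far lower, by 4.08 log2 units. These 6 chains were picked for display and do not stand for all members. The uninterrupted run of triplets was 338 long in Col1a1, 339 in Col1a2 and 344 in Col3a1. It was shorter in the fibrillar chains Col24a1 and Col27a1, at 216 and 217, and reached at most 66 among type IV chains, in Col4a2. Col12a1 and Col14a1, which sit on fibrils and carry long non-collagenous parts, had runs of 32.

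The expected counts of all genes summed to 5149312 for OG2 MEF, 4590619 for ICR MEF and 1717838 for the library labelled ESC. Levels are given as CPM, the count scaled to a fixed library total after adjustment by edgeR's TMM factors, and on this scale 3 counts stand for 0.532, 0.580 and 2.15 CPM. Of 11 pluripotency markers, 4 were higher in the library labelled ESC by at least 1 log2 unit than in either MEF sample, among them Pou5f1 with 71 counts against 0 and 0, Nanog with 51 against 2 and 0, and Sox2 with 32 against 3 and 4. Tdgf1, the remaining one, rested on only 2 counts in that library against 0 and 0. Another 6 had no count in it (Zfp42, Dppa5a, Esrrb, Lin28a, Utf1 and Dppa4), Klf2 was lower, and the 11 together reached 113 CPM, with 12.1 in OG2 MEF and 18.6 in ICR MEF. Since the markers were split in this way, the library is called by its label throughout. The 9 fibroblast markers were all counted in it, with a summed level of 3953 CPM against 15166 and 16176 in MEF, and 7 of them were at least 1 log2 unit lower than in both MEF samples, while S100a4 was at 619, 779 and 1184 CPM. The 9 squamous epithelial markers summed to 338 CPM in it against 1.24 and 2.71, led by Krt14, a keratin of basal epithelium, with 414 counts against 2 and 8. Krt14 alone made up 297 of the 338 CPM, and Krt4, Krt5, the usual partner of Krt14, and Trp63 had no count there. The part of these other transcripts in the collagen values was not tested. In bulk libraries fewer cells of a type and less RNA per cell cannot be told apart.

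Collagen messages took a far larger share of the MEF libraries. The 44 genes held 168941 counts in OG2 MEF, which is 3.28% of all counts (95% Wilson interval 3.27 to 3.30), and 174511 counts in ICR MEF, which is 3.80% (3.78 to 3.82). In the library labelled ESC they held 4678 counts, or 0.272% (0.265 to 0.280). These intervals cover counting error within each library only and hold no spread between cultures. PCR copies were not told apart by molecular identifiers, so the intervals may be too narrow even for counting error. Summed TPM, a level per length scaled to a fixed total, was 10899, 13189 and 500.1 in the same order. Ranked by mean MEF CPM, 8 collagens stood among the 100 most abundant genes, and 0 did by CPM in the library labelled ESC.

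Of the 44 members, 43 had a count in at least 1 library. Col6a4 was the exception, with no count anywhere. At least 10 counts were reached by 27 members in OG2 MEF, 29 in ICR MEF and 20 in the library labelled ESC, and 14 members stayed under 10 in every library. On the log2(CPM + 1) scale, which understates differences of low genes, the library labelled ESC lay at least 1 log2 unit below both MEF samples for 20 members and above both for 4. Over all 17810 genes with a count, 25.9% lay that far below and 21.9% that far above. The class counts below are to be read beside these shares. The median difference, library labelled ESC minus MEF mean, was -1.13 over the 43 members with a count and -0.13 over all genes with a count. Among the 29 members that passed edgeR's filter on low counts, its quasi-likelihood test with Benjamini-Hochberg adjustment called 19 lower and 4 higher, against 36.0% and 31.4% of all genes tested. That test had 1 residual degree of freedom, so its spread came from the MEF pair alone and its p-values say nothing of how ESC libraries vary.

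**Figure D1:**
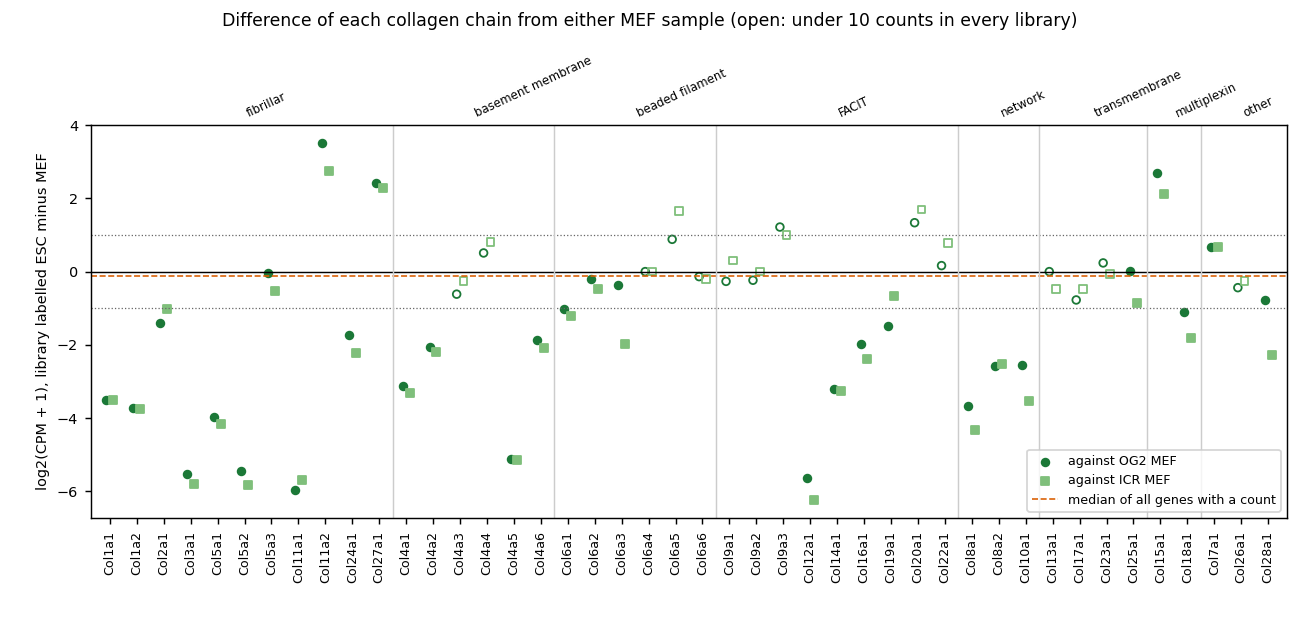
Difference in log2(CPM + 1), library labelled ESC minus each of the 2 MEF samples as separate points, for each collagen chain grouped by class. Open symbols mark chains with under 10 counts in every library. Of the 44 chains, 20 lay at least 1 log2 unit below both MEF samples and 4 at least 1 above both.

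Type I collagen, the main component of bone, skin and tendon fibrils, was the most abundant collagen in every library by TPM. Col1a1 (chromosome 11, 94936224 to 94953042, plus strand) had 53373 counts in OG2 MEF, 48730 in ICR MEF and 1155 in the library labelled ESC. Col1a2 (chromosome 6, 4504814 to 4541544, plus strand) had 43016, 40754 and 808 counts. Both chains were nearly equal in the MEF samples and lower by more than 3 log2 units in the library labelled ESC. Col1a1 was 13.21 and 13.20 in MEF against 9.70, a difference of -3.51 on the log2(CPM + 1) scale (edgeR's quasi-likelihood test, Benjamini-Hochberg adjusted p = 3.14e-06). Col1a2 was 12.90 and 12.95 against 9.18, a difference of -3.74 (edgeR, adjusted p = 2.21e-06). Even so, type I held 36.2% of the summed collagen TPM of that library, where it held 57.6% in OG2 MEF and 51.8% in ICR MEF.

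The chains that accompany type I in fibrils had differences from -5.68 to -0.29. Col3a1, whose product mixes with type I in elastic tissues such as vessel walls, had 12289 and 13611 counts in OG2 and ICR MEF and 64 in the library labelled ESC. Its difference was -5.68, or a CPM level 52.5-fold higher in the MEF mean (edgeR, adjusted p = 6.4e-07). Type V collagen is built into type I fibrils and limits their width. Col5a2 fell from 13888 and 16796 counts to 78, a difference of -5.64 (edgeR, adjusted p = 9.21e-07). Col5a1 fell from 10880 and 11395 counts to 169, a difference of -4.08 (edgeR, adjusted p = 1.56e-06). The remaining chain of the type, Col5a3, had 276, 356 and 66 counts, with 5.64 and 6.13 in MEF and 5.59 in the library labelled ESC, and it was not called (edgeR, adjusted p = 0.643). The chains of type V thus did not share a difference of 1 size. Col3a1 and Col5a2 are neighbours on chromosome 1, at 45311538 to 45349706 on the plus strand and 45374321 to 45503282 on the minus strand.

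The cartilage collagens were present at lower levels. Col11a1, a chain of the type XI fibrils of cartilage that is also made with type V chains elsewhere, had 2367 counts in OG2 MEF, 1806 in ICR MEF and 8 in the library labelled ESC, a difference of -5.83 (edgeR, adjusted p = 9.02e-07). Col2a1, the main cartilage collagen, had 848, 587 and 78 counts and a difference of -1.21 (edgeR, adjusted p = 0.00323). Its partner in type XI, Col11a2 (chromosome 17, 34039437 to 34066685), went the other way. It had 4 and 10 counts in MEF and 26 in the library labelled ESC, with log2(CPM + 1) of 0.77 and 1.55 against 4.30 (edgeR, adjusted p = 0.000602). By deposited TPM Col11a2 was less clear, since its 2.24 there lay between the 0.52 of OG2 and the 3.18 of ICR MEF. Its deposited lengths were 2888 and 1474 bases in OG2 and ICR MEF and 6048 in the library labelled ESC, on these few counts. With 1 length for all libraries, its difference on the log2(TPM + 1) scale was 1.69. Col27a1 (chromosome 4, 63214004 to 63334991), a fibrillar chain with a shortened helix that is found in cartilage, had 49 and 50 counts in MEF and 70.8 in the much shallower library labelled ESC, or 3.28 and 3.42 against 5.70 (edgeR, adjusted p = 3.49e-05), and its TPM was 2.50, 3.16 and 6.12. On the log2(TPM + 1) scale Col27a1 lay less than 1 unit above ICR MEF. Col24a1, the other chain with a shortened helix, had 13 and 19 counts in MEF and none in the library labelled ESC. Its MEF mean was at least 1.39-fold higher than the 2.15 CPM of 3 counts there, and the test did not call it (edgeR, adjusted p = 0.0536). Of the 11 fibrillar chains 8 were therefore lower by at least 1 log2 unit than in both MEF samples, 2 were higher, and Col5a3 was neither.

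**Figure D2:**
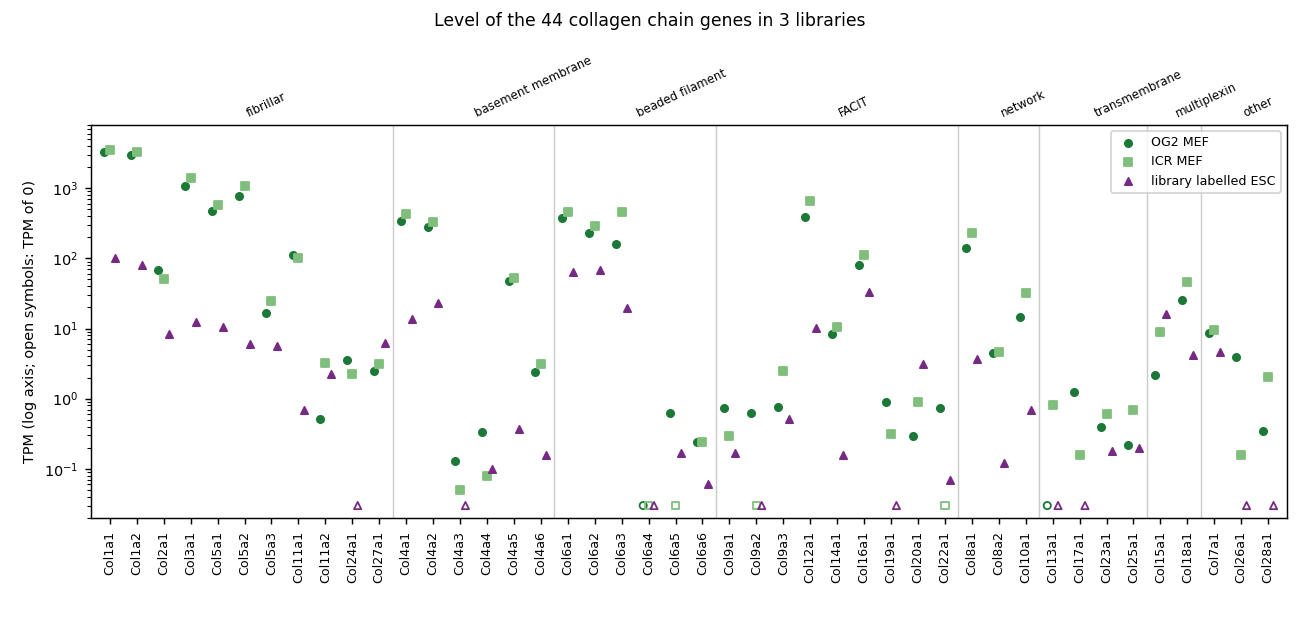
TPM of each collagen chain in the 3 libraries on a log scale, grouped by class, with open symbols at the foot for a TPM of 0. Col1a1 and Col1a2 stood at the top in each library, at 3301 to 3526 and 2976 to 3304 in MEF and at 101.4 and 79.7 in the library labelled ESC.

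Of the 6 basement membrane chains, 4 were lower than in both MEF samples by at least 1 log2 unit, and Col4a3 and Col4a4 were neither lower nor higher. Col4a1 and Col4a2 together form the mesh common to nearly all basement membranes, and their genes stand head to head on chromosome 8, from 11198423 to 11312826 on the minus strand and from 11312805 to 11449287 on the plus strand, so that the annotated genes overlap by 22 bases. Whether counting used strand is not given in the sources used here. Col4a1 had 6208 counts in OG2 MEF, 6548 in ICR MEF and 175 in the library labelled ESC, a difference of -3.22 (edgeR, adjusted p = 4.6e-06). Col4a2 had 4866, 4946 and 290 counts and a difference of -2.12 (edgeR, adjusted p = 3.6e-05). The head-to-head pair on the X chromosome, Col4a5 and Col4a6, belongs to the more specialised networks of kidney and smooth muscle. Col4a5 had 752 and 709 counts in MEF and 4 in the library labelled ESC, a difference of -5.14 (edgeR, adjusted p = 1.39e-06), while Col4a6 had 44, 48 and 2, a difference of -1.97 (edgeR, adjusted p = 0.0185). Col4a3 and Col4a4, the kidney filter chains, had at most 4 counts in any library.

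Of the 6 type VI chains, 1 was lower by at least 1 log2 unit than in both MEF samples, where 25.9% of all genes with a count were. Col6a1 (chromosome 10, 76708792 to 76726168) had 4117 counts in OG2 MEF, 4293 in ICR MEF and 497 in the library labelled ESC, or 9.52 and 9.70 against 8.48, just past the limit of 1 log2 unit (edgeR, adjusted p = 0.00203). Col6a2, on the same strand of chromosome 10 at 76595762 to 76623630, had 2439, 2683 and 524 counts, or 8.76 and 9.02 against 8.56, and was not called (edgeR, adjusted p = 0.452). Scaling decided these calls, since the difference of Col6a1 was -1.13 here and -0.93 with median-of-ratios factors, and that of Col6a2 was -0.33 here and -1.88 with deposited TPM, where the median of all genes moved by -1.11. Col6a3, the long chain that joins them in type VI filaments, had 1770 counts in OG2 MEF and 4977 in ICR MEF. The library labelled ESC had 337, and its 7.92 lay below both 8.30 and 9.91 in MEF but by less than 1 log2 unit below OG2 (edgeR, adjusted p = 0.0692). Against ICR MEF alone the difference was -1.99. In the library labelled ESC, Col6a2 and Col6a1 followed type I in the order of collagens by TPM, at 69.2 and 63.8. The more restricted chains Col6a5 and Col6a6 had at most 5 counts.

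Of the 9 FACIT collagens, which sit on the surface of fibrils, 3 were lower and 1 was higher. Of all genes with a count 25.9% were lower and 21.9% higher, so these counts are not read as a result about the class. Col12a1, found in dense connective tissue, had 8119 counts in OG2 MEF, 11305 in ICR MEF and 39 in the library labelled ESC, a difference of -5.94 and a CPM level 64.9-fold higher in the MEF mean (edgeR, adjusted p = 1.91e-06). Its place among the chains with the largest differences depended on the scale. By CPM ratio Col11a1 stood higher, at 67.1-fold, and with deposited TPM the differences were -5.49 for Col12a1, -6.00 for Col11a1, -6.52 for Col3a1 and -7.01 for Col5a2. The deposited length of Col12a1 was 7507 and 7412 bases in MEF and 2067 in the library labelled ESC. With 1 length for all libraries the TPM differences were -7.12 for Col12a1, -6.14 for Col11a1, -7.13 for Col3a1 and -7.04 for Col5a2. Col16a1 had 747, 908 and 46 counts and a difference of -2.18 (edgeR, adjusted p = 0.000121). Col14a1 had 122, 116 and 2 counts and a difference of -3.24 (edgeR, adjusted p = 0.000302). The other 6 FACIT chains, among them the type IX chains of cartilage, had at most 10 counts in any library. Col20a1 counts among the 4 chains placed higher in the library labelled ESC, but it rests on 4 counts there against 3 and 1, and it did not pass the filter of the test.

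The network-forming chains were all lower. Col8a1, made by vessel wall and corneal cells among others, had 1927, 2760 and 36 counts, a difference of -4.00 (edgeR, adjusted p = 1.59e-05). Its partner Col8a2 had 52, 46 and 1 (edgeR, adjusted p = 0.00562). Col10a1, the collagen of hypertrophic cartilage, had 123, 227 and 4 counts and a difference of -3.05 (edgeR, adjusted p = 0.00313). Summed levels of 6 chondrocyte markers were 20.2 CPM in OG2 MEF, 46.0 in ICR MEF and 14.3 in the library labelled ESC. Within that list Acan, the large proteoglycan of cartilage, had 7, 80 and 5 counts and Matn1, a cartilage matrix protein, had none in any library. Their part in the cartilage collagen values was not tested.

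Among the multiplexins, whose carboxy ends can be cut off as endostatin-like fragments, the related chains went opposite ways. Col15a1 (chromosome 4, 47208161 to 47313167) had 31 counts in OG2 MEF, 45 in ICR MEF and 57 in the library labelled ESC, or 2.70 and 3.28 against 5.39 (edgeR, adjusted p = 0.000146). Its TPM was 2.21, 9.03 and 16.1, with deposited lengths of 5172, 2244 and 1940 bases that moved with it. On the log2(TPM + 1) scale Col15a1 lay less than 1 unit above ICR MEF. Col18a1 had 353, 535 and 40 counts, or 5.99 and 6.71 against 4.89 (edgeR, adjusted p = 0.00872). These chains were placed on opposite sides of MEF, but the difference between them was not tested. Endothelial cells are a known source of both, and 4 endothelial markers summed to 11.5 CPM in OG2 MEF, 11.2 in ICR MEF and 81.0 in the library labelled ESC. Pecam1 alone made up 64.5 of these 81.0 CPM, against 0 and 0 in MEF, so the sum rests mostly on 1 gene. The list did not move as 1, since Tek was also higher in the library labelled ESC while Kdr (10.8, 10.4 and 0 CPM) was lower and Cdh5 had no count there. The part of such transcripts in the Col15a1 value was not tested.

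Of the remaining chains, Col7a1 makes the anchoring fibrils that tie epithelium to the layer beneath it. It had 207, 190 and 83 counts, and its 5.92 in the library labelled ESC lay above 5.24 in each MEF sample (edgeR, adjusted p = 0.00313). The direction turned with the scaling, since its TPM was 8.71 and 9.58 in MEF and 4.65 in the library labelled ESC. Its difference of 0.68 log2 units was below the limit of 1 used to count members. The 4 transmembrane chains, Col13a1, Col17a1, Col23a1 and Col25a1, which reach out from cell surfaces, had at most 11 counts in any library. Col26a1 had at most 2 counts, and Col28a1 had 4, 20 and 0.

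The make-up of the collagen message differed by class. Fibrillar chains held 80.6% of the summed collagen TPM in OG2 MEF, 76.4% in ICR MEF and 46.6% in the library labelled ESC. Type VI held 6.97%, 9.08% and 30.5% in the same order. Basement membrane chains held 6.13%, 6.12% and 7.54% of the TPM and 7.03%, 7.02% and 10.1% of the collagen counts. The direction for FACIT chains turned with the measure, at 4.47%, 5.88% and 9.46% of the TPM but 5.34%, 7.07% and 2.05% of the counts. Among them, the TPM of Col16a1 in the library labelled ESC was 33.0 as deposited and 6.75 with 1 length per gene. Multiplexins held 0.256% and 0.412% in MEF and 4.05% in the library labelled ESC, where Col15a1 and Col18a1 had 57 and 40 counts. By counts their share there was 2.07%, and the TPM of Col15a1 was 16.1 as deposited and 7.95 with 1 length per gene.

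**Figure D3:**
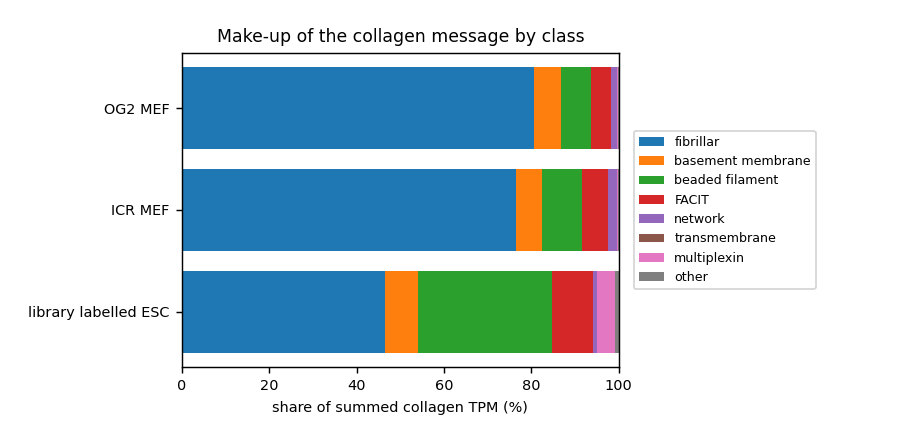
Share of the summed collagen TPM held by each class in the 3 libraries, as stacked bars that add to 100%. Fibrillar chains held 80.6%, 76.4% and 46.6% in OG2 MEF, ICR MEF and the library labelled ESC, and the beaded filament chains of type VI held 6.97%, 9.08% and 30.5%. The FACIT share in the library labelled ESC was 9.46% by TPM and 2.05% by counts.

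Ratios of partner chains were taken from TPM, with a 95% exact interval for the counts behind them, and only where both chains had at least 10 counts. For Col1a1 to Col1a2, whose products join 2 to 1 in type I collagen, the ratio was 1.11 (1.10 to 1.12) in OG2 MEF, 1.07 (1.05 to 1.08) in ICR MEF and 1.27 (1.16 to 1.39) in the library labelled ESC. All 3 lay close to equal message rather than near the protein proportion. The ratio of Col4a1 to Col4a2, whose products also join 2 to 1, was 1.24 (1.20 to 1.29) and 1.29 (1.24 to 1.34) in MEF. In the library labelled ESC it was 0.588 (0.485 to 0.712), so the alpha 2 message was the more abundant there. Col5a1 to Col5a2 turned the opposite way, from 0.613 (0.598 to 0.628) and 0.531 (0.519 to 0.544) to 1.7 (1.29 to 2.25). With 1 library of each kind these intervals cover counting error and not the spread between cultures, so the shifts have no replicate check on the ESC side. In each of the pairs of types IV and V the interval of the library labelled ESC did not reach those of the MEF samples.

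The ratio of Col6a1 to Col6a2, whose products are used in equal amounts in type VI collagen, was 1.65 (1.57 to 1.73) in OG2 MEF, 1.57 (1.49 to 1.64) in ICR MEF and 0.922 (0.814 to 1.04) in the library labelled ESC. Col6a3 to Col6a1 differed between the MEF libraries, at 0.428 (0.404 to 0.452) in OG2 MEF and 0.994 (0.954 to 1.04) in ICR MEF. In the library labelled ESC it was 0.303 (0.263 to 0.349) from TPM but 0.624 with 1 length per gene, because the deposited length of Col6a3 was 9001 bases there against 4120 and 4757 in MEF. Col3a1 to Col1a1, which compares the types that mix in fibrils, was 0.323 (0.316 to 0.329), 0.396 (0.388 to 0.403) and 0.121 (0.0927 to 0.156), and 0.0781 in the last library with 1 length per gene. Col11a1 to Col5a1, chains that can share a molecule, was 0.239 (0.229 to 0.250) in OG2 MEF and 0.174 (0.166 to 0.183) in ICR MEF, and Col11a1 had only 8 counts in the library labelled ESC. The minor chains of pairs were far lower than the major ones in MEF. Col4a5 exceeded Col4a6 by 19.4-fold (14.3 to 26.9) and 17-fold (12.7 to 23.2), and Col8a1 exceeded Col8a2 by 31.2-fold (23.7 to 42.0) and 50.6-fold (37.8 to 69.3). In the library labelled ESC these pairs had too few counts for a ratio.

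**Figure D4:**
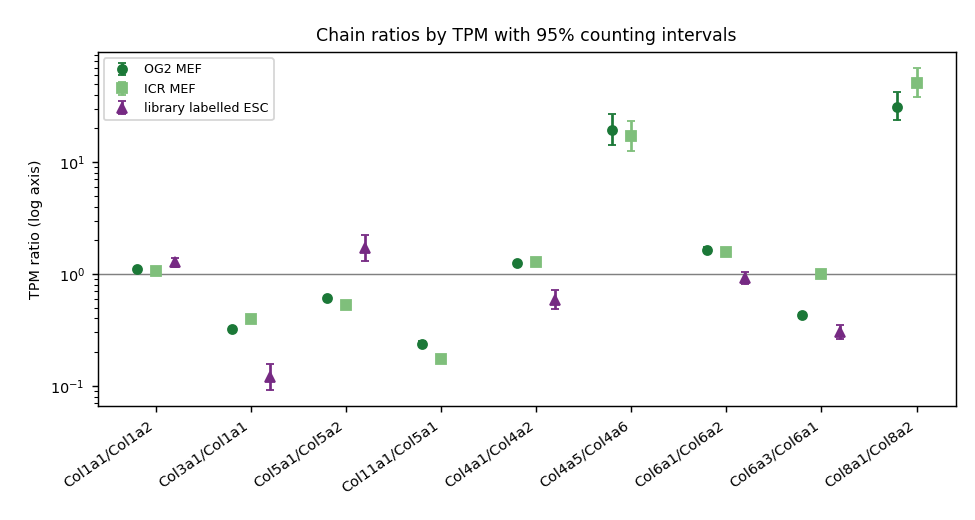
TPM ratio of partner chains in each library on a log scale, with 95% exact intervals from the counts, shown where both chains had at least 10 counts. The ratio of Col4a1 to Col4a2 was 1.24 and 1.29 in MEF and 0.588 in the library labelled ESC, while Col5a1 to Col5a2 was 0.613 and 0.531 against 1.7.

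Most collagens lay close together in the MEF samples. Only Col6a3 and Col28a1 lay at least 1 log2 unit apart between OG2 and ICR MEF among the 44 members, both higher in ICR, where 2.76% of all genes with a count lay that far apart and 1.81% were higher in ICR and 0.955% in OG2. The difference of ICR minus OG2 was 1.61 for Col6a3 and 1.51 for Col28a1, the latter on 20 counts against 4, and Col10a1 followed at 0.98. With 1 library of each strain there was no test of these values. With a pseudocount of 0.1 in place of 1 the count was 13, a setting for which the share over all genes is not given. Smaller differences leaned the same way, since 25 of the 30 members with at least 10 counts in 1 library were higher in ICR (83.3%), against 49.2% of the 12726 genes with as many counts. The median of ICR minus OG2 was 0.18 over members with a count and 0.00 over all genes with a count.

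The genes that fold, carry, trim and link collagen were compared in the same libraries. Of 42 such genes, 26 lay at least 1 log2 unit below both MEF samples in the library labelled ESC and 1, Pcolce2, above both, against the 25.9% and 21.9% of all genes given above. The quasi-likelihood test of edgeR with Benjamini-Hochberg adjustment called 28 lower and 3 higher, left 7 uncalled and did not test 4. Among 17 folding enzymes and chaperones 8 were lower. Serpinh1, the chaperone that binds only folded collagen, had 11325 and 10234 counts in MEF and 1148 in the library labelled ESC, a difference of -1.28, and its TPM was 1922, 2023 and 264. The proline hydroxylase subunit P4hb had 9214, 8329 and 933 counts, a difference of -1.28, but its TPM was 1221, 1288 and 1142. All 4 genes listed for secretion were lower, namely the coat subunits Sec23a and Sec24d, the cargo receptor Mia3 and the transcription factor Creb3l1. Sec24d had 1219 and 1026 counts in MEF against 1, and Sec23a had 1332, 971 and 38.

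Trimming and linking enzymes were more varied. Of 8 genes of procollagen trimming 4 were lower and 1 higher. Bmp1, the protease that removes the carboxy ends of procollagens, had 924, 1010 and 61 counts, a difference of -2.01, while its enhancer Pcolce had 3148, 2761 and 1038 counts, a difference of 0.45. Of 5 cross-linking oxidases 4 were lower. Lox, which starts the cross-links between collagen molecules, went from 13528 and 13752 counts to 55, a difference of -5.97 close to those of Col12a1 and Col11a1, while Loxl2 had 4203, 3621 and 451, a difference of -1.16. Among 8 receptors 6 were lower, including the integrin subunit Itgb1 at 10759, 9685 and 307 counts (-3.10) and the collagen uptake receptor Mrc2 at 2091, 1819 and 179 (-1.49).

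The difference of a chain was set beside the base composition of its message. Across the 30 members with at least 10 counts in 1 library, the Spearman correlation of the difference from MEF with the share of G or C at the last base of codons was 0.62, and with the GC content of the transcript 0.58. Across 12697 genes the latter was 0.23. These values describe chains measured in the same 3 libraries, which share depth and library preparation, and many chains share an ancestry. Col3a1, Col4a5, Col5a2 and Col11a1 had 28.4%, 28.9%, 29.4% and 32.7% G or C at the last base and were lower by more than 5 log2 units. Col11a2, Col15a1 and Col27a1, which were higher, had 53.7%, 53.3% and 56.9%, and the type VI chains Col6a1, Col6a2 and Col6a3, with differences of -1.13, -0.33 and -1.18, had 60.9%, 64.9% and 58.6%. Col12a1 and Col5a1, at 45.1% and 52.2%, were lower by 5.94 and 4.08 and stood below the other chains of like composition. Between the MEF samples, the correlation of ICR minus OG2 with transcript GC content was -0.15 over the same 30 chains. Whether base composition played a part in the measured differences was not tested.

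**Figure D5:**
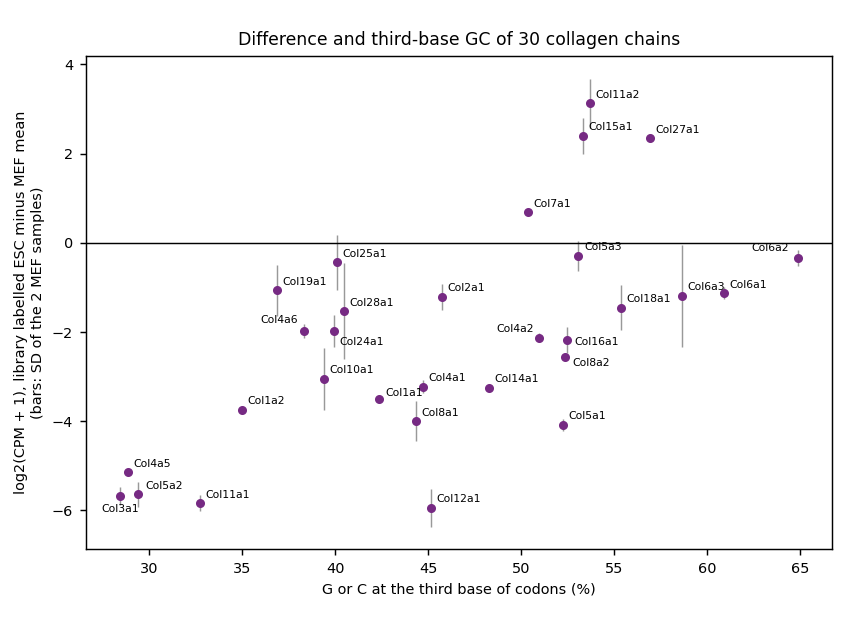
Difference in log2(CPM + 1), library labelled ESC minus MEF mean, with the SD of the 2 MEF samples as bars, against the percent of codons with G or C as last base, for 30 collagen chains. Chains near 30%, such as Col3a1 at 28.4%, lay below -5, and the 3 chains above 2 had 53.3% to 56.9%.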

How the data were processed

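RNA-seq tables of 2 MEF samples and 1 ESC sample were used. According to the methods, the authors trimmed reads with TRIMMOMATIC, aligned them with bowtie2 to Ensembl v67 transcripts and counted with RSEM, while the labels name Bowtie, RSEM and mm10. The deposited tables hold the authors' RSEM expected count for each gene, before the GC-content normalization that the methods name. They also hold TPM, which the authors' RSEM run made by scaling for length, and FPKM, deposited beside it and not used here. The sequencer is a MiSeq in the labels and a NextSeq 500 in the methods.

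Expected counts were rounded and scaled by TMM (edgeR 4.0.16, R 4.3.3), with a pseudocount of 1. Members were called lower or higher when they lay 1 log2 unit or more away from each MEF sample, beside edgeR's quasi-likelihood test (adjusted p under 0.05). Samples were grouped by their labels. Alternatives used other pseudocounts, size factors, full-quantile normalization (limma 3.58.1), GC correction, TPM, a minimum of 10 counts, DESeq2 1.42.0 and leaving out either MEF sample. Other steps used Python 3.11.15, numpy 2.4.6, pandas 2.3.3, scipy 1.17.1 and matplotlib 3.10.9. Symbols, positions and coding sequences came from GENCODE M21 on GRCm38, the build named mm10, with symbols for 28756 of 29267 identifiers. All members could be named, and from the pathway list Serpinh1, Lox and the 2 genes of each class with the highest mean CPM. Mia3, Creb3l1 and Pcolce2 were named beyond this rule. The members and lists were chosen with earlier results of these data known. RSEM divides reads shared by several genes among them.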

Additional observations from a re-analysis of the deposited data

How the results depend on the processing

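The count of collagen genes lower in the library labelled ESC was 20 and ranged from 17 to 25 over the alternatives, and from 21 to 22 with either MEF sample left out. Without OG2 MEF, Col6a3 (-1.99) and Col28a1 (-2.28) joined it, and without ICR MEF Col19a1 (-1.47) did. The count of higher genes was 4, with a range of 3 to 6 apart from TPM, and was 5 without OG2 MEF, where Col6a5 (1.66) joined, and 5 without ICR MEF, where Col9a3 (1.22) joined, both on at most 5 counts. It was 1 with deposited TPM and 1 with TPM at 1 length per gene. The chain left with deposited TPM was Col20a1, on 4 counts, while Col11a2, Col15a1 and Col27a1 were no longer placed higher. The chain left with 1 length per gene was Col11a2, at 1.69, with Col15a1 at 0.81, Col27a1 at 0.69 and Col20a1 at 0.53. The count of genes apart between the MEF samples was 2, and was 6 with deposited TPM, 13 when the pseudocount was 0.1 and 1 when it was 5. The 2.76% of all genes apart belongs to the main setting, and no such share is given for the others. These changes are therefore not read as a result about collagens. DESeq2 called 17 lower and 3 higher where edgeR called 19 and 4. The share of all genes that DESeq2 called is not given here, so its counts can be set only beside those of edgeR. Col7a1, at 0.68, became -0.84 with deposited TPM, -0.78 with TPM at 1 length per gene and -0.016 with GC correction. The cause was not tested. The median of all genes itself moved, by -1.11 with TPM, -1.19 with TPM at 1 length per gene, 0.42 with GC correction, 0.43 with GC and length correction, 0.17 with median-of-ratios factors, 0.20 with full-quantile normalization and 0.13 with a pseudocount of 5. Of all genes, 43.2% were lower and 9.12% higher with TPM, and 19.5% and 28.3% with GC correction, against 25.9% and 21.9%. The corrections for GC content with length and the values with 1 length per gene were chosen after the data had been seen. No paired analysis was possible because a single ESC library cannot be matched by number to both MEF samples. For edgeR, leaving out a MEF sample leaves no residual degree of freedom, so that fit was not run. Depth limits the 14 members under 10 counts in every library, and 1 ESC library limits every comparison.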

Other observations

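The length that RSEM gave a gene, a mean over its transcripts weighted by their estimated abundance, differed between libraries for some collagens and entered their TPM. Of 19 members with at least 30 counts in each library, 5 had a length that in the library labelled ESC differed at least 1.5-fold from the MEF mean. Col16a1 was given 3482 bases in OG2 MEF, 3579 in ICR MEF and 851 in the library labelled ESC. Its TPM was 80.4, 111 and 33.0 as deposited and 79.6, 112 and 6.75 with 1 length for all libraries. Col12a1 was given 7507, 7412 and 2067 bases, and its TPM in the library labelled ESC was 10.3 as deposited and 2.64 with 1 length. Col3a1 was given 4278, 4233 and 2790 bases, with 12.3 and 7.73 TPM in the last library. Col6a3 moved the other way, at 4120, 4757 and 9001 bases, with 19.3 and 39.0 TPM.

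The remaining marker lists were measured for the same libraries, in the order OG2 MEF, ICR MEF and library labelled ESC. Extraembryonic endoderm markers, 7 genes of a lineage rich in basement membrane, summed to 130, 137 and 33.0 CPM, of which Dab2 held 114, 119 and 22.9. Lama1, a laminin chain of basement membranes, was at 4.26, 6.38 and 9.32 CPM, and Sox17 and Foxa2 had no count in any library. Macrophage markers summed to 66.6, 36.6 and 23.7 CPM, muscle markers to 171, 94.0 and 28.7, and neural markers to 106, 134 and 58.8. Of 6 chondrocyte markers, 3 lay at least 1 log2 unit apart between the MEF samples, among them Acan, whose counts were 7 and 80. The part of these transcripts in the collagen values was not tested.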
